A study of Rattus norvegicus with 9 samples.

Results

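The genes described here encode the ion channels of potassium, calcium, chloride and sodium and the transient receptor potential (TRP) channels, with their auxiliary subunits, in a small resistance artery of the rat. They were taken by gene symbol from the platform annotation of the array (symbols beginning Kcn, Cacna, Cacnb, Cacng, Clcn, Clic, Scn, Trpc, Trpm or Trpv and carrying a number), which gave 191 probesets for 136 genes, out of 15866 probesets that are not Affymetrix controls. A probeset is a set of short oligonucleotides read together as 1 signal for 1 transcript. Only probesets with 1 symbol were taken, and 1 further probeset annotated to several TRP genes was left out. The symbol rule also took in Trpc4ap, which encodes a protein that binds a TRP channel and is not itself a channel.

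The arrays were Affymetrix RAE230A arrays hybridized with RNA of the saphenous artery's primary branch from male rats aged 16 weeks. There were 3 groups of 3 arrays each. The first was the spontaneously hypertensive rat (SHR), an inbred strain that was not treated. The second was the Wistar-Kyoto (WKY) rat given adrenocorticotropic hormone (ACTH) subcutaneously for 4 weeks from the age of 12 weeks, at 0.1 mg/kg/day by the sample labels, and the third was the untreated WKY rat. Each array held RNA pooled from 2 to 3 rats, so the p-values below reflect the spread between pools. SHR and WKY differ throughout their genomes as well as in blood pressure, and the comparisons of SHR and of ACTH with WKY share the same 3 WKY arrays. A signal below 44 is called dim here, because no detection calls were among the values used.

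Arterial tone is set by the membrane potential of the smooth muscle cell. Potassium channels let potassium out and hold the potential negative, chloride channels and many TRP channels carry current that moves it towards zero, and voltage-gated L-type calcium channels open on depolarization and admit the calcium that drives contraction. The large-conductance calcium-activated potassium (BK) channel acts as a brake in this system, since it opens on calcium and voltage and its smooth muscle beta subunit makes it more sensitive to calcium.

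Most channel genes were dim in this artery. Of the 191 probesets, 38 (33 genes) had a mean signal above 44 in at least 1 group, or 19.9%, against 57.61% of all probesets that are not controls. The mean exceeded 44 for 32 probesets in SHR, for 35 in ACTH and for 33 in WKY, and 29 exceeded it in all 3 groups. Just above this level was Kcne3 with a highest group mean of 45.4, and just below it was Trpc2 with 41.2. The tests were run on probesets whose third-highest signal of the 9 arrays was at least 44, and 37 channel probesets (32 genes) passed, among 9125 probesets of the array. The 2 criteria differed for Kcnj4 and Trpv1, which exceeded 44 as a group mean but did not pass, and for Trpc2, which passed but did not exceed it. The remaining 154 channel probesets had means over the 9 arrays of 1.055 to 37.2, and 104 channel genes had no probeset that passed.

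Every family had at least 1 gene that passed. Of the voltage-gated potassium channels 6 of 30 genes passed (Kcna5, Kcnc4, Kcnd1, Kcnh2, Kcnh3 and Kcns3), of the inward rectifiers 2 of 15 (Kcnj8 and Kcnj12), of the two-pore channels 2 of 11 (Kcnk3 and Kcnk6) and of the calcium- or sodium-activated potassium channels 3 of 7 (Kcnma1, Kcnmb1 and Kcnmb4). The auxiliary potassium channel subunits added Kcnab1 out of 3 Kv beta genes, Kcne3 out of 3 Kcne genes and Kcnip3 out of 4 Kv channel-interacting protein genes. Of the voltage-gated calcium channel genes 5 of 24 passed (Cacna1a, Cacna1c, Cacna1h, Cacna2d1 and Cacnb2), of the TRP genes 5 of 16 (Trpc1, Trpc2, Trpc4ap, Trpm4 and Trpm7), of the ClC genes 2 of 7 (Clcn3 and Clcn6), of the CLIC genes 2 of 4 (Clic1 and Clic4) and of the sodium channel genes 2 of 12 (Scn3b and Scn7a). In a list of 29 channel genes known for a part in vascular tone, 25 were on the array and 13 passed. Those that did not pass included Kcnj2 and Kcnj11, pore subunits of the inward rectifier and the ATP-sensitive channel, Kcnn3 and Kcnn4, the calcium-activated channels of the endothelium, and Trpc6, Trpv2 and Trpv4, cation channels of smooth muscle and endothelium. For Kcnn4 the signals were 41.2, 45.2 and 30.4 in SHR, 11.7, 27.5 and 19.2 in ACTH, and 31.7, 17.3 and 66.3 in WKY, which overlap and lie mostly under 44.

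**Figure D1:**
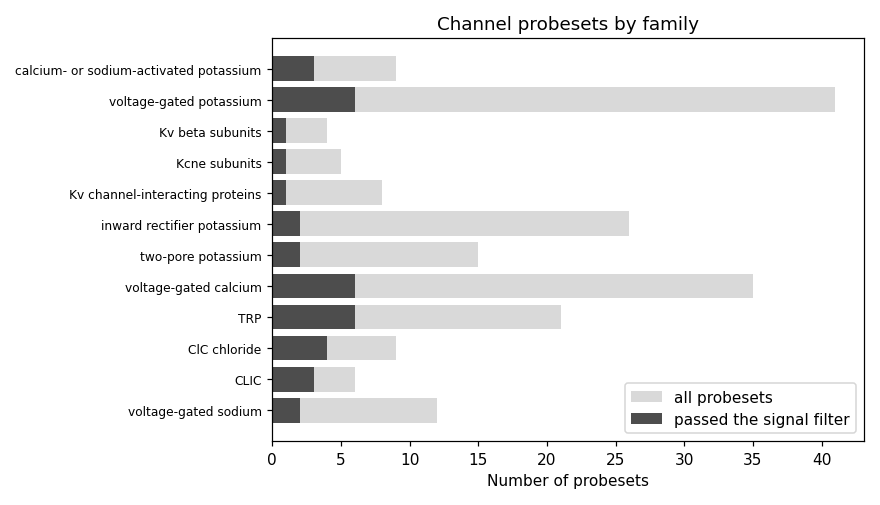
Number of channel probesets in each family (horizontal axis), all probesets in light bars and those that passed the signal filter in dark bars. Voltage-gated potassium channels have the most probesets, 41, of which 6 passed.

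Signals of arrays of the same group correlated with a mean Pearson r of 0.963 (0.951 to 0.979, across probesets, which are not independent replicates), against 0.943 between groups. The ratio of the 3' to the 5' control probeset of GAPDH, a measure of RNA integrity, was 4.17 ± 0.86 in SHR, 4.05 ± 0.436 in ACTH and 5.41 ± 0.541 in WKY (SD, n = 3 each). It was lower in the ACTH arrays (3.67 to 4.52) than in any WKY array (4.91 to 5.99), while the SHR arrays (3.57 to 5.16) overlapped WKY. The same ratio for beta-actin was 8.35 to 9.14 in SHR, 8.37 to 9.68 in ACTH and 9.77 to 13.55 in WKY. By that ratio no SHR or ACTH array overlapped WKY, though the nearest ACTH and WKY arrays were close, at 9.68 and 9.77. The beta-actin ratio thus differed along with the groups and cannot be told apart from them. The hexokinase ratios that the paper reports overlapped between WKY and both other groups. Whether RNA integrity itself differed between the groups was not tested. Of 10 smooth muscle marker genes 9 passed, with summed signals of 25324 to 26382 in SHR, 24502 to 25413 in ACTH and 23739 to 27898 in WKY, so the markers of the labelled tissue were present. In bulk tissue fewer cells of a type and less RNA per cell cannot be told apart.

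The median change of the channel genes was close to 0 in both models. With the brightest probeset standing for each gene, the median log2 change of the 32 channel genes was 0.07 for SHR minus WKY (0.00 over all 6918 genes tested), 0.04 for ACTH minus WKY (0.02 over all genes) and 0.05 for SHR minus ACTH (-0.02 over all genes). Of the 32 genes, 18 lay above 0 in SHR minus WKY, 18 in ACTH minus WKY and 17 in SHR minus ACTH. The median size of the change, without its sign, was 0.26, 0.25 and 0.30 in these 3 comparisons, against 0.19, 0.16 and 0.19 over all genes. The channel probesets also spread more between arrays of a group, with a median log2 SD of 0.27 in SHR, 0.173 in ACTH and 0.261 in WKY, against 0.22, 0.153 and 0.209 over all probesets tested.

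By limma, with p-values adjusted by the Benjamini-Hochberg method over all 9125 probesets, 2 of 37 channel probesets differed between SHR and WKY at an adjusted p under 0.05, where 2.05% of all probesets did. Kcnmb1 was higher in SHR (0.964% of all probesets were called higher) and 1 probeset of Clcn3 was lower in SHR (1.08% of all were called lower). The signals of the SHR arrays did not overlap those of the WKY arrays for 11 of 37 channel probesets, against 19.4% of all probesets, with 4 higher and 7 lower in SHR (9.7% and 9.67% of all). Between ACTH and WKY 0 of 37 channel probesets were called by limma, against 1.21% of all probesets (0.548% higher and 0.658% lower in ACTH), and 6 had an unadjusted p under 0.05, against 12.5% of all. Cacna1a, which passed the filter mostly through the ACTH arrays, is among the 6. The same contrast without moderation of the variances also called 0. The ACTH arrays did not overlap the WKY arrays for 7 of 37, against 20.4% of all, with 1 higher and 6 lower in ACTH (10.7% and 9.76% of all). Between SHR and ACTH 2 of 37 were called, Kcnip3 and 1 probeset of Trpm7, both lower in SHR, against 3.4% of all probesets in either direction with 1.58% higher and 1.82% lower in SHR. The arrays of these groups did not overlap for 11 of 37, against 24.9% of all, with 3 higher and 8 lower in SHR (11.7% and 13.3% of all). Among the 8 lower, Cacna1a, Kcnj12, Kcnk3 and Trpc2 had SHR means under 44 and passed the filter through other groups. By the F test over the 3 groups 3 of 37 were called (Kcnmb1, Kcnip3 and the same probeset of Trpm7), against 4.11% of all. Among the 13 genes of the vascular tone list, taken by their brightest probeset, Kcnmb1 was the 1 gene called in SHR against WKY and Trpm7 the 1 gene called between SHR and ACTH. By limma 6 of the 13 had an unadjusted p under 0.05 in each of these comparisons, against 16.4% and 17.2% of all probesets. The list was chosen with earlier results of these data known, so these shares are no test of it. Kcnk3, which passed the filter through groups other than SHR, is among the 6 in both comparisons. In ACTH against WKY 0 of the 13 were called by limma, with 0 at an unadjusted p under 0.05 (1 without moderation). Without moderation 0 of the 13 were called in any of the 3 comparisons. The median log2 change of these 13 genes was -0.12 for SHR minus WKY and -0.00 for ACTH minus WKY.

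**Figure D2:**
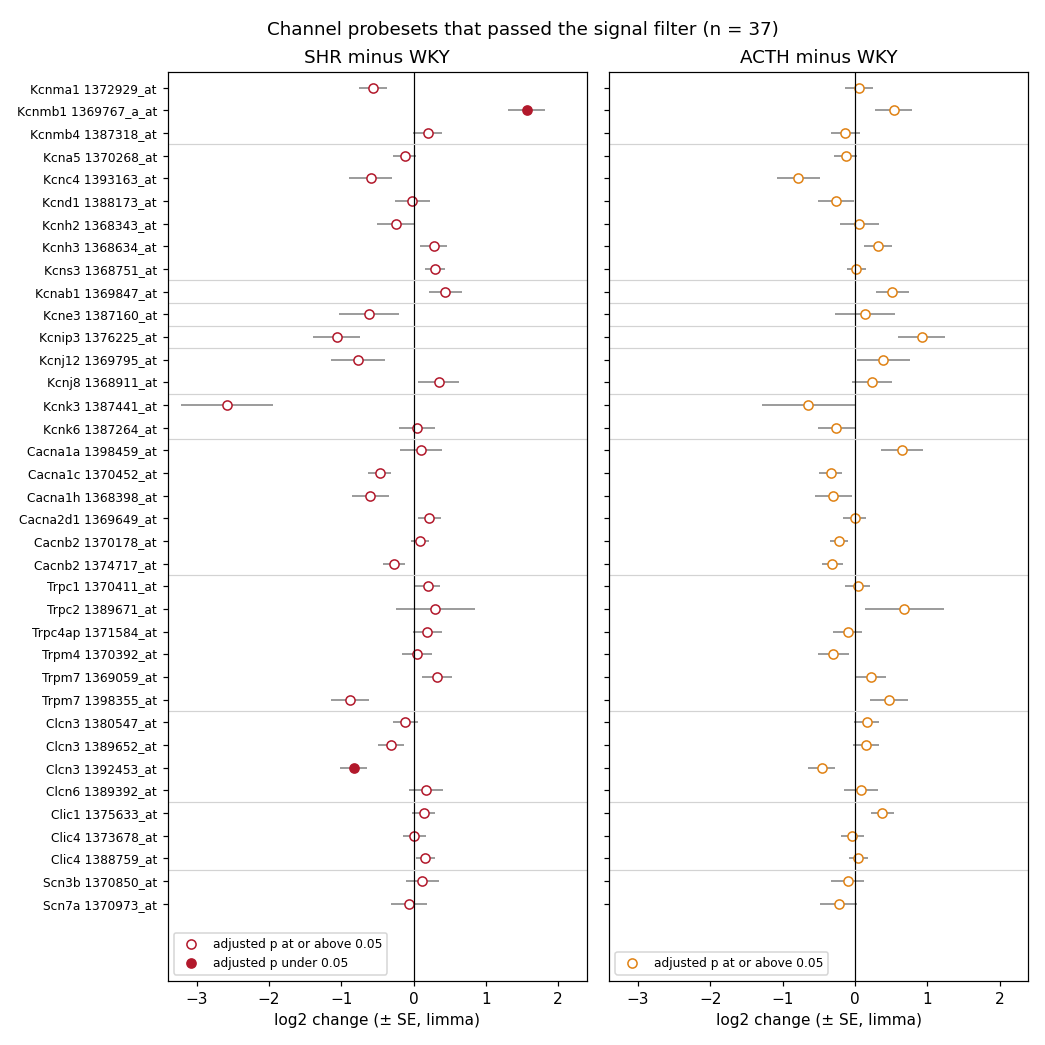
Log2 change (horizontal axis) of the 37 channel probesets that passed the signal filter, SHR minus WKY on the left and ACTH minus WKY on the right. Points are limma estimates and bars their SE (n = 3 arrays a group), filled points have an adjusted p under 0.05, and grey lines separate families. Filled are Kcnmb1 (1.56) and Clcn3 1392453_at (-0.83) on the left, and none on the right.

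Kcnmb1, which encodes the beta-1 subunit of the BK channel in smooth muscle, was measured by probeset 1369767_a_at. Its signal was 182, 265 and 154 in SHR, 90.0, 102 and 94.9 in ACTH, and 92.7, 47.7 and 65.0 in WKY. All 3 SHR arrays lay above every ACTH and every WKY array, while ACTH and WKY overlapped. The mean was 200.4 ± 58.0 in SHR, 95.8 ± 6.26 in ACTH and 68.4 ± 22.7 in WKY (SD, n = 3 each). The log2 change was 1.56 ± 0.26 (SE) for SHR minus WKY, or 2.96-fold, with an adjusted p of 0.0107 by limma. It was 1.03 ± 0.26 for SHR minus ACTH (adjusted p = 0.0574 by limma) and 0.54 ± 0.26 for ACTH minus WKY (adjusted p = 0.441 by limma). Leaving out any 1 array kept SHR minus WKY between 1.33 and 1.81 with the call in place. On the 1 scan day that held arrays of both groups, SHR 1 and SHR 2 minus WKY 2 was 2.21. With the GAPDH ratio of each array as a covariate the change was 1.25 and the call was lost (adjusted p = 0.226 by limma). Of the 9 smooth muscle markers 1 was called in the same comparison, Des (desmin), at -1.45, while the others ran in both directions (median of the 9, -0.19). Of 10 endothelial markers Flt1 (1.71) and Emcn (1.15) were called higher and Vwf (-1.28) lower in SHR. Flt1 was dim on all ACTH and WKY arrays and passed the filter only through its SHR arrays (54.3 to 72.4), so its call and change are uncertain. Of 5 adipocyte markers Cidea was called lower (-1.90). Fabp4 (1.38), Cfd (1.21) and Lpl (0.10) had the opposite sign and Pnpla2 was -0.04, none of them called. Of 13 skeletal muscle markers on the array 3 passed. Among these Acta1 was called higher (0.92), while Myh1 (-0.33) and Casq1 (-0.23) had the opposite sign and were not called. The endothelial markers summed to 3930 to 4387 in SHR and 4315 to 4686 in WKY, but their median log2 change for SHR minus WKY was 0.29. Within these sums Vwf gave 366 to 674 in SHR and 1105 to 1350 in WKY. The part of these markers in the result was not tested.

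Kcnma1, which encodes the pore of the same channel, had its lowest values in SHR and did not pass the test. Probeset 1372929_at gave 430.5, 379 and 465 in SHR, 670.1, 592 and 690.0 in ACTH, and 806, 472 and 647 in WKY. Every SHR array was below every ACTH and WKY array, and the nearest pair was SHR 3 and WKY 2, with 465 and 472. The log2 change was -0.57 ± 0.19 for SHR minus WKY (adjusted p = 0.186 by limma), -0.62 ± 0.19 for SHR minus ACTH (adjusted p = 0.128 by limma) and 0.05 ± 0.19 for ACTH minus WKY. On the 1 scan day that held arrays of both groups, SHR 1 and SHR 2 minus WKY 2 was -0.22. The other 2 probesets of Kcnma1 were dim on every array, at 1.61 to 27.2. Kcnmb4, the beta-4 subunit best known from neurons, had a log2 change of 0.20 ± 0.20 for SHR minus WKY and -0.13 ± 0.20 for ACTH minus WKY, and neither was called.

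The promoters of both BK genes are shown because the SHR signal was the highest for one gene and the lowest for the other, of which only Kcnmb1 passed the test. The windows run from 250 bases before to 50 bases after the transcript start in RefSeq (assembly GRCr8), 5' to 3' on the plus strand, at chr10:19061849-19062148 for Kcnmb1 and chr15:351675-351974 for Kcnma1, and capitals mark GC boxes (GGGCGG on either strand, overlapping matches counted apart) and E-boxes (CANNTG).
Kcnmb1: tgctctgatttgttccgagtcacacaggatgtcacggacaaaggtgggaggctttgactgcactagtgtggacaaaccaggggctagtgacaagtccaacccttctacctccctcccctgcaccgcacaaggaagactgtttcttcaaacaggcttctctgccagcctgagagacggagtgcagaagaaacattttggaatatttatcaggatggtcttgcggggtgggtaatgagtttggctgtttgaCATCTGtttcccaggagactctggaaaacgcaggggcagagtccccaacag
Kcnma1: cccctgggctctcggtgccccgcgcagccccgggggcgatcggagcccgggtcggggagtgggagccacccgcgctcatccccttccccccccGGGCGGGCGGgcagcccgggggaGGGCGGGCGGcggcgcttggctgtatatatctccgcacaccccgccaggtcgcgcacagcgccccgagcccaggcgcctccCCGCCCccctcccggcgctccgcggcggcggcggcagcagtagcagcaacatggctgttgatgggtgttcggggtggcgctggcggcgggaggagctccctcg
The Kcnmb1 window held 1 E-box, no GC box and 6 CpG dinucleotides, with a GC content of 51.7%. The Kcnma1 window held 5 GC boxes, no E-box and 38 CpG dinucleotides, with a GC content of 78.3%. Over 33469 RefSeq windows of 300 bases the median was 7 CpG, 33.1% held a GC box and 72.1% an E-box. Neither window held the letters TATAAA (in 14.2% of all windows, either strand), the glucocorticoid half-site letters TGTTCT (20.7%) or a CArG box, the binding motif of serum response factor (1.64%). These matches describe the letters of 1 annotated start per gene in the reference, and the array did not measure which start was used.

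Clcn3, which encodes a chloride-proton exchanger of endosomes and other vesicles, had 3 probesets that passed, and they disagreed in size. Probeset 1392453_at gave 56.1, 65.6 and 84.5 in SHR, 93.9, 93.3 and 76.0 in ACTH, and 121, 137 and 105 in WKY. The WKY arrays were above all others, and SHR and ACTH overlapped. Its log2 change was -0.83 ± 0.18 for SHR minus WKY, just under the threshold (adjusted p = 0.0497 by limma), and -0.46 ± 0.18 for ACTH minus WKY (adjusted p = 0.333 by limma). Leaving out 1 array left the SHR call in place only without SHR 3 (-0.69 to -0.99 over the 9 arrays left out, adjusted p = 0.0282 to 0.147 by limma), with scan day as a block the change was -1.17 (adjusted p = 0.146 by limma), and with the GAPDH ratio as a covariate it was -0.42 (adjusted p = 0.452 by limma).

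Probeset 1389652_at of Clcn3 gave 89.5, 72.6 and 84.3 in SHR, 122, 88.6 and 133 in ACTH, and 92.6, 95.3 and 119 in WKY. SHR was again below WKY on all arrays, but by less, with a log2 change of -0.31 ± 0.18 (adjusted p = 0.431 by limma). Probeset 1380547_at gave 92.3, 71.5 and 101 in SHR, 112, 118 and 88.9 in ACTH, and 88.6, 106 and 89.2 in WKY. All 3 groups overlapped there, and the log2 change for SHR minus WKY was -0.11 ± 0.18 (adjusted p = 0.797 by limma). Of the other ClC genes only Clcn6, a late endosomal exchanger, passed the filter, with a log2 change of 0.18 ± 0.24 for SHR minus WKY and 0.08 ± 0.24 for ACTH minus WKY.

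**Figure D3:**
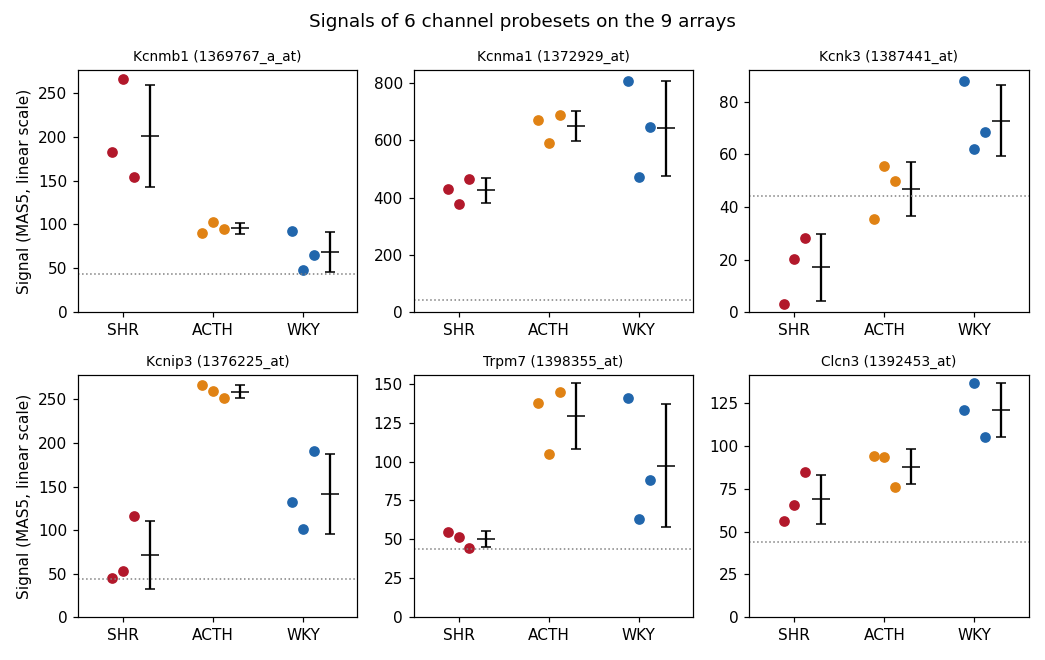
Signal (vertical axis, MAS5, linear scale) of 6 channel probesets on each of the 9 arrays, by group. Points are arrays, horizontal marks with bars the mean and SD of 3 arrays, and the dotted line a signal of 44. The SHR arrays stand above all others for Kcnmb1 and below all others for Kcnma1, Kcnk3 and Trpm7.

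Kcnip3 encodes a calcium-binding protein that associates with Kv4 potassium channels and is also known as a transcriptional repressor. Probeset 1376225_at gave 45.4, 52.9 and 116 in SHR, 266, 259 and 252 in ACTH, and 133, 101 and 191 in WKY. The ACTH arrays were close together and above all others, while SHR 3 lay within the range of WKY. The log2 change was -1.99 ± 0.33 for SHR minus ACTH (adjusted p = 0.0106 by limma), and the call held with any 1 array left out. Against WKY the log2 change was -1.06 ± 0.33 in SHR (adjusted p = 0.146 by limma) and 0.92 ± 0.33 in ACTH (adjusted p = 0.272 by limma), and neither was called. Without SHR 3 the change for SHR minus WKY was -1.48 and was called (adjusted p = 0.0179 by limma). SHR 3 was scanned on the same day as the 3 ACTH arrays and the other SHR arrays on another; within that day SHR 3 minus ACTH was -1.16, and with scan day as a block the call was lost (adjusted p = 0.0784 by limma). The second probeset of Kcnip3 was dim, at 2.23 to 22.2.

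Trpm7, which encodes a magnesium- and calcium-permeable channel fused to a kinase, had 2 probesets with different patterns. Probeset 1398355_at gave 54.8, 51.5 and 44.7 in SHR, 138, 105 and 145 in ACTH, and 141, 63.3 and 87.9 in WKY. All SHR arrays were below all others, and ACTH and WKY overlapped. The log2 change was -1.35 ± 0.26 for SHR minus ACTH (adjusted p = 0.0209 by limma) and -0.88 ± 0.26 for SHR minus WKY (adjusted p = 0.132 by limma). The first call was lost when SHR 2, SHR 3, ACTH 1 or ACTH 3 was left out (adjusted p up to 0.089 by limma), and SHR minus WKY ran from -0.57 without WKY 1 to -1.15 without WKY 2, where it was called (adjusted p = 0.0379 by limma). With scan day as a block neither comparison was called, at -1.52 for SHR minus ACTH (adjusted p = 0.0704 by limma) and -0.25 for SHR minus WKY (adjusted p = 0.725 by limma).

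Probeset 1369059_at of Trpm7 gave 54.3, 65.9 and 39.5 in SHR, 51.4, 53.7 and 40.7 in ACTH, and 37.9, 38.5 and 48.7 in WKY. The groups overlapped, and the log2 change was 0.11 ± 0.21 for SHR minus ACTH (adjusted p = 0.838 by limma) and 0.33 ± 0.21 for SHR minus WKY, opposite in sign to the other probeset. Macrophage markers, like Kcnip3 and the other Trpm7 probeset, were lower in SHR than in ACTH, with a median log2 change of -0.88. Of these markers 8 of 10 were on the array and all 8 passed, and 2 were called lower in SHR than in ACTH, Cd14 (-0.83) and Ms4a6bl1 (-1.20). Ms4a6bl1 passed the filter through the ACTH arrays (91.7 to 103), where it was highest, and gave 37.0 to 49.7 in SHR. Its call and change are therefore uncertain. The summed signals of the 8 macrophage markers were 1055 to 1640 in SHR, 1668 to 2482 in ACTH and 469 to 1358 in WKY. Within these sums Lyz2 gave 558 to 1017 in SHR and 761 to 1202 in ACTH, which overlap. For SHR minus WKY the marker median was 0.83 with 0 called. Kcnip3 (-1.06) and the other Trpm7 probeset (-0.88) had the opposite sign there and were not called. Fibroblast markers (8 of 8 passed) summed to 15415 to 18016 in SHR, 10353 to 13231 in ACTH and 14971 to 17579 in WKY. For SHR minus ACTH the collagens Col1a1 (1.19), Col1a2 (0.75) and Col3a1 (0.92) were called higher. Dpt was 0.66, while Dcn (-0.31), Lum (-0.004), Pdgfra (-0.13) and Fbln1 (-0.70) had the opposite sign, none of them called. The part of the macrophage and fibroblast markers in the 2 calls between SHR and ACTH was not tested.

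**Figure D4:**
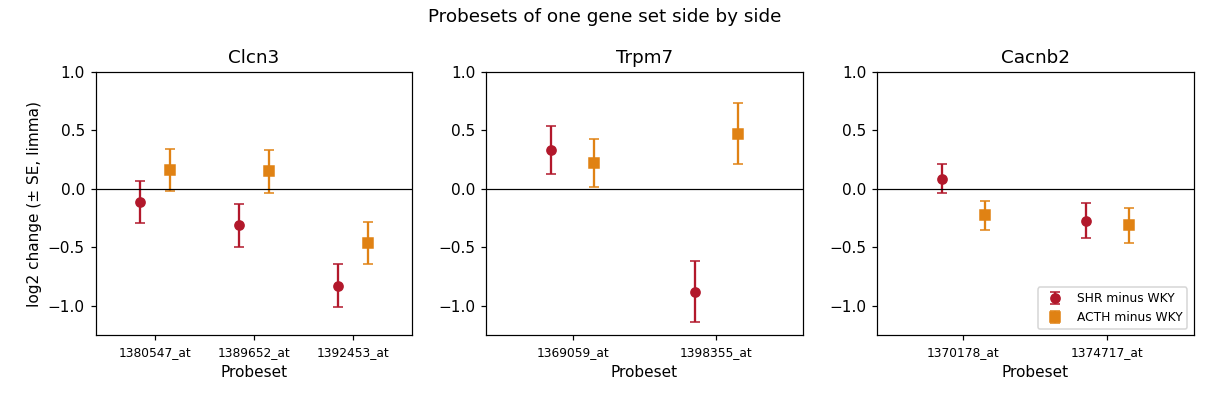
Log2 change (vertical axis) for each probeset that passed the filter of Clcn3, Trpm7 and Cacnb2, SHR minus WKY as circles and ACTH minus WKY as squares, with limma SE (n = 3 arrays a group). The probesets of Trpm7 differ in sign in SHR (0.33 and -0.88), and those of Clcn3 run from -0.11 to -0.83.

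Kcnk3, which encodes the two-pore leak channel TASK-1, was dim in SHR. Probeset 1387441_at gave 3.11, 20.1 and 28.0 in SHR, 35.4, 55.4 and 49.8 in ACTH, and 88.0, 62.1 and 68.3 in WKY. The 3 groups did not overlap, and all SHR arrays were under 44, so that the probeset passed the filter through the other groups and the size of its change is uncertain. The fitted log2 change for SHR minus WKY was -2.58 ± 0.64 (adjusted p = 0.0777 by limma) and was not called. It was called without SHR 1, the dimmest array, at -1.60 (adjusted p = 0.0145 by limma), without SHR 3 at -3.19 (adjusted p = 0.0353 by limma), and on the scale of log2 of signal plus 16 at -1.50 (adjusted p = 0.00828 by limma). The call was made in only 2 of the 9 fits with 1 array left out (adjusted p up to 0.206 by limma). Of 13 other settings 3 called it, with changes of -2.97 to -1.45 over the 13 (adjusted p up to 0.57 by limma or without moderation). ACTH minus WKY was -0.64 ± 0.64 (adjusted p = 0.762 by limma). The other 2 probesets of Kcnk3 were dim on nearly every array, with means over the 9 arrays of 22.5 and 6.25. Kcnk6, another two-pore channel, had changes of 0.05 ± 0.25 for SHR minus WKY and -0.26 ± 0.25 for ACTH minus WKY.

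No voltage-gated potassium channel gene that passed was called in any comparison. Kcns3, a silent subunit that modifies Kv2 channels, gave 101, 115 and 102 in SHR, 91.9, 83.4 and 86.9 in ACTH, and 89.3, 91.4 and 78.3 in WKY. SHR was above the others on all arrays, by 0.30 ± 0.13 on the log2 scale for SHR minus WKY (adjusted p = 0.298 by limma). Kcnc4, a fast Kv3 channel, gave 47.3, 95.7 and 105 in SHR, 85.9, 66.4 and 55.6 in ACTH, and 101, 109 and 148 in WKY. The ACTH arrays were below all WKY arrays (-0.79 ± 0.30, adjusted p = 0.305 by limma), and SHR overlapped both. Kcna5, the Kv1.5 pore subunit of vascular muscle, overlapped in all groups, with -0.12 ± 0.16 for SHR minus WKY and -0.13 ± 0.16 for ACTH minus WKY. Kcnd1, Kcnh2 and Kcnh3 had changes of -0.24 to 0.28 for SHR minus WKY and -0.26 to 0.32 for ACTH minus WKY.

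The Kv beta subunit gene Kcnab1 had changes of 0.44 ± 0.23 for SHR minus WKY and 0.52 ± 0.23 for ACTH minus WKY, not called (adjusted p = 0.378 and 0.387 by limma). Its WKY arrays gave 54.9, 53.4 and 98.0, of which WKY 3 lay above all ACTH arrays (95.3, 97.5 and 91.1). Kcnj8, the Kir6.1 pore of the vascular ATP-sensitive channel, gave 87.4, 173 and 131 in SHR, 116, 104 and 131 in ACTH, and 69.1, 136 and 102 in WKY, which overlapped throughout (0.35 ± 0.28 for SHR minus WKY). Kcnj12, an inward rectifier, gave 10.5, 26.2 and 37.0 in SHR, 48.0, 42.8 and 55.9 in ACTH, and 44.1, 32.4 and 35.3 in WKY. SHR was below ACTH on all arrays (-1.17 ± 0.37, adjusted p = 0.133 by limma) but overlapped WKY. All SHR arrays were dim, so the size is uncertain, and SHR minus ACTH was -0.64 without SHR 1 and -0.39 within the scan day that held SHR 3 and the ACTH arrays. Kcne3, an auxiliary subunit with a mean near 44, had changes of -0.62 ± 0.41 for SHR minus WKY and 0.14 ± 0.41 for ACTH minus WKY.

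The calcium channel genes Cacna1c and Cacna1h were lower than WKY on all arrays of both models without being called. Cacna1c, the pore of the L-type channel of smooth muscle, gave 147, 199 and 199.8 in SHR, 208, 182 and 203 in ACTH, and 224, 259 and 265 in WKY. The log2 change was -0.47 ± 0.16 for SHR minus WKY (adjusted p = 0.186 by limma) and -0.33 ± 0.16 for ACTH minus WKY (adjusted p = 0.444 by limma). Cacna1h, the T-type channel Cav3.2, gave 67.0, 142 and 141 in SHR, 142, 128 and 137 in ACTH, and 166, 160.1 and 174 in WKY. Its log2 change was -0.60 ± 0.25 for SHR minus WKY (adjusted p = 0.28 by limma), and it was -0.24 without SHR 1, the lowest array. Because both comparisons use the same WKY arrays, their common direction is not 2 separate results.

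Cacnb2, an auxiliary beta subunit of L-type channels, had 2 probesets that passed. Probeset 1370178_at gave 259.9, 281 and 253 in SHR, 206, 205 and 229 in ACTH, and 247, 253 and 247 in WKY. Each group held its own range, with SHR just above WKY and ACTH below both, but the change was 0.09 ± 0.12 for SHR minus WKY (adjusted p = 0.773 by limma), -0.23 ± 0.12 for ACTH minus WKY (adjusted p = 0.531 by limma) and 0.31 ± 0.12 for SHR minus ACTH (adjusted p = 0.23 by limma). Probeset 1374717_at gave 129.6, 156 and 135 in SHR, 133, 122 and 153 in ACTH, and 187, 150.4 and 170.3 in WKY. Here SHR had the same direction as ACTH, with -0.27 ± 0.15 for SHR minus WKY and -0.31 ± 0.15 for ACTH minus WKY, and neither was called. Cacna2d1, the alpha-2-delta subunit, had 0.22 ± 0.16 for SHR minus WKY and -0.00 ± 0.16 for ACTH minus WKY, and Cacna1a, best known from neurons, had 0.11 ± 0.29 and 0.65 ± 0.29 for the same comparisons, with an adjusted p of 0.395 by limma for the second. Cacna1a gave 30.4, 43.9 and 29.3 in SHR, 51.4, 46.0 and 50.9 in ACTH, and 28.6, 21.0 and 51.9 in WKY. It passed the filter mostly through the ACTH arrays, where its mean was highest, so the size of its change is uncertain.

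The remaining TRP, CLIC and sodium channel genes were not called in any comparison. Trpc1 and Trpm4, cation channels found in vascular muscle, had changes of 0.19 ± 0.17 and 0.05 ± 0.21 for SHR minus WKY, and of 0.04 ± 0.17 and -0.30 ± 0.21 for ACTH minus WKY. Trpc2, dim on most arrays, had 0.30 ± 0.55 for SHR minus WKY and 0.68 ± 0.55 for ACTH minus WKY, and Trpc4ap had 0.19 ± 0.20 for SHR minus WKY and -0.10 ± 0.20 for ACTH minus WKY. Clic1, a chloride intracellular channel protein, gave 814, 728 and 734 in SHR, 928, 914 and 844 in ACTH, and 861, 601 and 626 in WKY. SHR was below ACTH on all arrays (-0.24 ± 0.16, adjusted p = 0.493 by limma), and both overlapped WKY. The 2 probesets of Clic4 that passed had changes of 0.01 ± 0.16 and 0.16 ± 0.13 for SHR minus WKY. Scn7a, an atypical sodium channel that senses extracellular sodium, ranged over 914 to 1221 in SHR, 821 to 1098 in ACTH and 793 to 1638 in WKY, so that the WKY range covered all values. Scn3b, a beta subunit, had 0.12 ± 0.23 for SHR minus WKY and -0.10 ± 0.23 for ACTH minus WKY.

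Outside the symbol rule, genes of intracellular release channels, store-operated entry, other chloride and cation channels and channel regulators were counted from lists. Of 31 such genes that passed, 0 were called by limma in SHR against WKY (2.05% of all probesets), with 3 at an unadjusted p under 0.05 (16.4% of all). In ACTH against WKY 0 were called (1.21% of all), with 5 at an unadjusted p under 0.05 (12.5% of all). The contrasts without moderation called 0 in all 3 comparisons. Their median log2 change was -0.02 for SHR minus WKY and -0.04 for ACTH minus WKY. Between SHR and ACTH 1 was called by limma (3.4% of all probesets), Tmem38b, an intracellular monovalent cation channel of the endoplasmic reticulum, with 26.1, 13.8 and 32.6 in SHR, 77.3, 53.2 and 96.0 in ACTH, and 47.5, 24.6 and 26.2 in WKY. It was lower in SHR than in ACTH on all arrays, with a fitted log2 change of -1.69 (adjusted p = 0.0297 by limma). All its SHR arrays were dim and it passed the filter through the ACTH arrays, where it was highest, so both the call and the size of this change are uncertain.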

How the data were processed

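Total RNA of 9 artery pools was amplified in a repeated cycle and hybridized by the authors to Affymetrix RAE230A arrays. The deposited values are signal intensity on a linear scale, made by the authors with MAS5 and scaled to a target of 150 (trimmed mean 150 on each array). The scanner experiment files, deposited per array, were used for scan day only (an unscaled text field, other than a measurement). The paper gives another ACTH dose than the labels; groups follow the labels. The precision of the values is limited by the number of arrays.

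Gene symbols came from the platform annotation, with gene identifiers matched to RefSeq for 12754 probesets, and 0 symbols changed. Log2 signals of the 9125 probesets passing the filter (third-highest signal at least 44) were fitted to 3 groups by limma 3.58.1 in R 4.3.3 (lmFit, eBayes), two-sided, adjusted by Benjamini-Hochberg over all of them and called under 0.05. The fit was tested on simulated data. Summaries and plots used Python 3.11.15, pandas 2.3.3 and matplotlib 3.10.9. Promoter windows came from RefSeq GRCr8, which held 101 of the 136 genes.

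Named probesets are those called, the 12 with the lowest F p, those of the 12 genes with the highest signal, those of the vascular tone list, and all probesets of these genes; the other genes that passed are given in brief. The members and lists were chosen with earlier results of these data known. Alternatives were other filters, centring, quantile normalization, weights for arrays, a trend in the variance, log2 of signal plus 16, and the GAPDH ratio, the day of scanning or the replicate number as a term, the 2 groups alone, the methods' tests without moderation, and leaving out arrays.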

Additional observations from a re-analysis of the deposited data

Results flagged for a closer look

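For 2 channel probesets the changes against WKY differed between the models, by the limma contrast of SHR with ACTH, in which the shared WKY arrays cancel. Kcnip3 1376225_at was lower in SHR than in ACTH by a log2 change of -1.99 (adjusted p = 0.0106 by limma), and all 3 SHR arrays were below all 3 ACTH arrays. SHR 1 and SHR 2 were scanned on another day than the ACTH arrays, and with scan day as a block the call was lost (-1.16, adjusted p = 0.0784 by limma). Trpm7 1398355_at was lower in SHR than in ACTH by a log2 change of -1.35 (adjusted p = 0.0209 by limma), again on all arrays, while the other probeset of Trpm7 that passed had 0.11. The Trpm7 call was also lost under the scan day block, at -1.52 (adjusted p = 0.0704 by limma), and when SHR 2, SHR 3, ACTH 1 or ACTH 3 was left out. The macrophage marker sums were also lower in SHR than in ACTH. For SHR minus WKY the median change of these markers was 0.83, while both channel probesets had negative changes. The part of these markers in either result was not tested.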

How the results depend on the processing

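Few calls were made, so single settings moved the counts, which are totals and can hold other probesets than the main ones. In SHR against WKY, where 2 channel probesets were called, the count was 0 over all non-control probesets, 1 with a mean signal of at least 100, 1 with array weights, 0 given the GAPDH ratio, 1 given a block for the day of scanning, 1 under the replicate block, 1 with only the 2 groups, 0 by the methods' tests without moderation and 1 without WKY 2 and SHR 1 together, which was Kcnk3 in place of Kcnmb1 and Clcn3; with 1 array left out the count was 1 to 4, the highest without SHR 3. Between SHR and ACTH, where 2 were called, the count was 0 over all non-control probesets, 5 with array weights (Kcnmb1, Kcnma1 and Clcn3 1389652_at were added), 0 given the scan day block and 0 by the methods' tests, and 1 to 3 with 1 array left out. By the F test, which called 3, the count was 0 over all non-control probesets, 1 given the scan day block and 0 by the methods' tests, and 0 to 4 with 1 array left out, the lowest without SHR 2. In ACTH against WKY 0 were called by limma under every alternative run. The causes of these differences were not tested.

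The median change of the channel genes for SHR minus WKY was -0.16 with scan day as a block, and -0.04 to 0.10 with 1 array left out. For ACTH minus WKY it was 0.086 over all non-control probesets, -0.018 with median centring, 0.11 with the GAPDH ratio and -0.16 with scan day as a block, and -0.013 to 0.059 with 1 array left out. For SHR minus ACTH it was -0.07 to 0.07 with 1 array left out. No scan day held both ACTH and WKY arrays, so the block reaches that comparison only through SHR. For every probeset the block sets SHR 1 and SHR 2 against WKY 2 alone, and SHR 3 alone against the ACTH arrays.

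Kcnmb1 in SHR against WKY lost its call over all non-control probesets (adjusted p = 0.0891 by limma), by the methods' tests (0.0979) and without WKY 2 and SHR 1 (1.38, adjusted p = 0.0605 by limma), beside the GAPDH ratio. With scan day as a block it was 2.21, which is the same difference of SHR 1 and SHR 2 from WKY 2 given above and no separate result. It rests on 1 WKY array, the lowest of the group for Kcnmb1. Over the alternatives its adjusted p by limma ran from 0.00311 to 0.226. In 1764 comparisons of 78 results on named probesets with their value under an alternative, 1640 kept direction and side of the threshold, 30 lost and 16 gained a call, 0 reversed, and 78 changed sign without being called in either setting.

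The labels give arrays of the groups the same replicate numbers without saying that a number marks a shared litter, batch or day. Deviations of same-numbered arrays correlated between -0.066 and 0.13 over 9 pairs, and those of other pairs between -0.16 and 0.14 over 18, so the numbers were not taken as pairs; with the replicate block the count for SHR against WKY was 1, the Clcn3 probeset having an adjusted p of 0.088.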
